A study of Mus musculus with 4 samples.

Results

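The cells described here were epithelial cells of the mouse ventral prostate that carried transcripts of Cyp2f2, Nxpe2, Upk1a and Car2, the genes that had marked proximal, urethra-near cells in earlier work on these tables. A cell was taken when it held at least 500 unique molecular identifiers (UMIs, each standing for 1 captured transcript) with at most 20% of them mitochondrial. The 4 genes together had to reach 2 UMIs and 0.15% of the cell's UMIs, the genes Smr2, Smr2l and Fxyd4 together at most 1 UMI, and the ventral lobe secretory transcripts Sbp and Spink1 had to stay under 10%. This gate held 439 of the 11245 cells in the tables, and of 8091 cells that passed the limits on UMIs and mitochondrial counts (the kept cells). The cells were chosen by the measured counts of these 9 genes, so the values of those genes, and how the cells differ from the rest, are given as description without a test.

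The study measured single-cell transcript counts in the ventral prostates of wild-type C57BL6j mice, collected 2 weeks after pellets had been implanted. There were 2 sham libraries and 2 libraries with the treatment code te2, each from 1 mouse with the paired lobes in 1 tube, dissociated with a cold-active bacterial protease. The series concerns steroid hormone imbalance and its design text speaks of hormone pellets. The sources used here do not spell out the code te2, the contents of the sham pellets or the age of the mice. Dissociated cells carry no position, so nearness to the urethra is a name from marker genes and was not measured.

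The gated cells were 58 and 198 in the 2 sham libraries (sham 1 and sham 2, always given in that order, as are te2 1 and te2 2) and 93 and 90 in the 2 te2 libraries. They made up 3.54% (exact 95% binomial interval 2.70 to 4.55) and 9.82% (8.55 to 11.2) of kept sham cells. In te2 the share was 4.002% (3.24 to 4.88) and 4.26% (3.44 to 5.21). These intervals cover counting error only. Sham 2 stood apart, with 198 of the 256 sham gated cells, and both te2 shares lay between the 2 sham shares (sham mean 6.68% ± 4.44, te2 mean 4.13% ± 0.184, SD, n = 2 each). The te2 libraries were deeper, with medians of 3426.5 and 4075 UMIs in kept cells against 1203.5 and 1722 in sham, whereas gated cells had medians of 1998 and 1778.5 in sham and 2198 and 2602 in te2. With every cell thinned to 500 UMIs before the gate, the shares were 1.53% and 4.41% in sham and 3.57% and 3.08% in te2. No cell barcode of a gated cell was shared between libraries, and from 1 to 5 barcodes of all cells were shared by a pair of libraries.

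The prostate ducts drain into the urethra, and the stretch nearest to it, the proximal duct, is lined by luminal cells that make little of the secretory product of the distal ducts. Proximal luminal cells are known for keratin Krt4, the surface protein Psca, and progenitor activity in graft assays. The urethral lining is a urothelium, whose umbrella cells build membrane plaques from uroplakins such as Upk1a and Upk1b. CYP2F2 is a cytochrome P450 best known from airway club cells, and CAR2 is a cytosolic carbonic anhydrase.

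Promoters of the gate's cytochrome and its uroplakin are shown because these 2 of the 4 positive genes were detected in the most sham gated cells. Each sequence is the stretch of 250 bases up to the annotated start in the GRCm38.p6 build, credited to RefSeq, read 5′ to 3′ on the gene's strand. Cyp2f2 lies on the plus strand at chr7:27119705-27119954 and Upk1a on the minus strand at chr7:30612735-30612984.
Cyp2f2: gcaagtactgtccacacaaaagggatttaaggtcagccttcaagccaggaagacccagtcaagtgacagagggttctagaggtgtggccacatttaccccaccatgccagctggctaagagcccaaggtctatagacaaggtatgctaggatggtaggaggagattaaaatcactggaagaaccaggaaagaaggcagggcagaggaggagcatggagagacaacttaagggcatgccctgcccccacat
Upk1a: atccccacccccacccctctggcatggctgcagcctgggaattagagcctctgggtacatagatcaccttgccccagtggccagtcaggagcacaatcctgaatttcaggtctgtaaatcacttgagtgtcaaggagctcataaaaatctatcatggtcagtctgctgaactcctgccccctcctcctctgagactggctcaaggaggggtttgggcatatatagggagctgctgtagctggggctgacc
The TATA box (TATAAA), the AP-1 site (TGACTCA), the Grainyhead-like core (AACCGG) and the GC box (GGGCGG) were searched as exact letters on both strands, in windows that also held the 50 bases after the start, and overlaps between the motifs were counted for each motif. Neither promoter, nor that of Nxpe2, held any of them. Among 32851 promoters of 300 bases, 13.6% held the TATA box letters, 5.20% those of the AP-1 site, 6.83% the Grainyhead-like core and 35.7% the GC box. Promoters were matched for 3 of the 7 genes looked up.

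Levels are CPM, the counts of a gene scaled to the same UMI total for every sum, of the summed cells of a library unless said otherwise. Cyp2f2 stood at 1203 and 1611 CPM in sham gated cells and at 17.2 and 31.8 in all other kept sham cells. Nxpe2, a neurexophilin-like gene, stood at 687 and 762 against 16.1 and 20.2. Upk1a stood at 746 and 706 against 229 and 261, and secretory luminal cells (Sbp and Spink1 at or above 10% of UMIs) also held 269 and 280 CPM of it. Car2 was the gate gene on which the sham animals differed most, at 96 CPM in sham 1 and 486 in sham 2, with 6.67 and 10.7 in the other kept cells. All 4 genes were therefore higher in the gated sham cells of each animal, by construction, and Upk1a was the least confined to them.

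At the level of single cells, Cyp2f2 had a UMI in 81.0% and 74.7% of sham gated cells and Upk1a in 65.5% and 63.6%. Macrophages (at least 3 UMIs of C1qa, C1qb and C1qc), which should lack both genes, gave 0 of 63 and 0 of 56 cells for Cyp2f2, and 0% and 3.57% for Upk1a. A count of 0, taken as under 3 counts over these cells, allows a share of cells with a Cyp2f2 UMI of up to 4.76% and 5.36% at their depth. Their median depth was 973 and 846.5 UMIs, below that of the gated cells. After thinning to 500 UMIs, Cyp2f2 was in 39.7% and 41.9% of sham gated cells. Among the 256 sham gated cells, 209 had at least 2 of the 4 genes, Cyp2f2 with Upk1a in 120 cells, Nxpe2 with Upk1a in 93 and Cyp2f2 with Nxpe2 in 86. The gate is a sum over these genes and so favours cells that hold several of them, and nothing is read from these counts. Just inside the gate, 9 and 20 sham and 12 and 8 te2 cells had exactly 2 UMIs of the 4 genes. Just outside it, 36 and 91 sham and 203 and 166 te2 cells had 1 UMI. A further 7 and 43 sham and 288 and 249 te2 cells had 2 or more UMIs of the 4 genes but under 0.15% of their UMIs. That percent limit thus left out more cells in the deeper te2 libraries.

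Gated cells with few basal keratin transcripts were most of the sham cells and a smaller part of the te2 cells. Keratins Krt5, Krt14 and Krt15, which mark basal cells, separated the gated cells into keratin-poor cells, with at most 1 UMI of the 3 genes, and keratin-positive cells, with at least 3 UMIs that made up 0.3% of the total or more. This split was chosen after the data had been seen. In sham, 55 of 58 and 178 of 198 gated cells were keratin-poor, and 1 and 11 were keratin-positive. In te2, 34 of 93 and 37 of 90 were keratin-poor, and 50 and 48 were keratin-positive. Keratin-poor cells were thus 91.0% of the sham and 38.8% of the te2 gated cells, and the 2 libraries of each group lay close to each other. The te2 keratin-poor cells made up 1.61% of kept cells on average. This split depends on depth, and the te2 libraries were deeper. After every cell was thinned to 500 UMIs before the gate, 24 of 25 and 81 of 89 gated sham cells were keratin-poor. In te2 the thinned counts were 60 of 83 and 35 of 65.

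**Figure D1:**
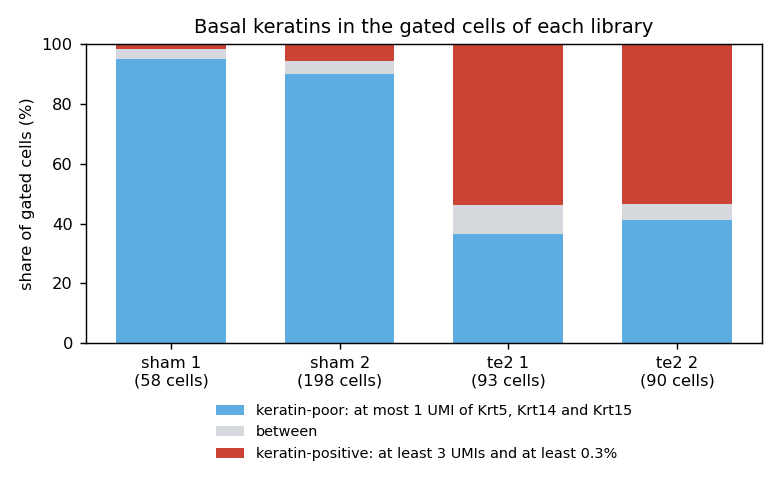
Share of gated cells (percent, bars stacked from 0) in each of the 4 libraries that were keratin-poor, between the limits, or keratin-positive for Krt5, Krt14 and Krt15. Counted without thinning, keratin-poor cells fill most of both sham bars (55 of 58 and 178 of 198 cells). They fill less than the keratin-positive cells in both te2 bars (34 and 37 cells against 50 and 48).

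Most keratin-positive te2 cells had entered the gate through Cyp2f2 alone. In 92 of the 98 no Nxpe2, Upk1a or Car2 was detected, whereas 56 of 71 keratin-poor te2 cells and 196 of 233 keratin-poor sham cells held at least 2 of the 4 genes. Their Cyp2f2 was 2157 and 2364 CPM, with Nxpe2 at 19.2 and 0. They also held Krt15 at 10949 and 16821 CPM, Krt5 at 1323 and 1788, the basal transcription factor Trp63 at 441 and 496, and Col17a1, a hemidesmosome collagen, at 288 and 363. Across genes within a library, which are not independent replicates, log2 levels (10 CPM added) of keratin-positive te2 cells correlated with those of ungated basal cells of the same library at r = 0.885 and 0.891, and with secretory luminal cells at 0.522 and 0.521. Keratin-poor te2 cells correlated with ungated basal cells at 0.632 and 0.597 and with secretory luminal cells at 0.866 and 0.824. Their highest correlation, 0.895 and 0.871, was with ungated cells that held at least 3 UMIs of Smr2, Smr2l and Fxyd4, the genes the gate limits. The 7 proximal luminal markers summed to 5746 and 4558 CPM in keratin-poor te2 cells and to 5119 and 6512 in those Smr2 or Fxyd4 positive cells.

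Basal cells as a whole held Cyp2f2. Among all cells with basal keratins and under 10% Sbp and Spink1, gated or not, Cyp2f2 stood at 214 and 553 CPM in sham (23 and 115 cells) and at 558 and 490 in te2 (516 and 531 cells). A UMI of it was found in 13.04% and 29.6% of these cells in sham and in 54.5% and 49.2% in te2, where the te2 macrophages, at median depths of 2384.5 and 2127 UMIs, gave 7.38% and 8.14%. Sham basal cells were shallower, and those outside the gate had medians of 931.5 and 1044 UMIs against 2234.5 and 2652 in te2. With these ungated cells thinned to 500 UMIs, Cyp2f2 was in 4.55% and 11.5% in sham and 17.6% and 13.3% in te2. The gate took 1 of 23 basal cells in sham 1 (4.35%), 11 of 115 in sham 2 (9.57%), 50 of 516 in te2 1 (9.69%) and 48 of 531 in te2 2 (9.04%). The sham 1 share rests on 1 cell, and te2 had 1047 basal cells against 138 in sham.

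**Figure D2:**
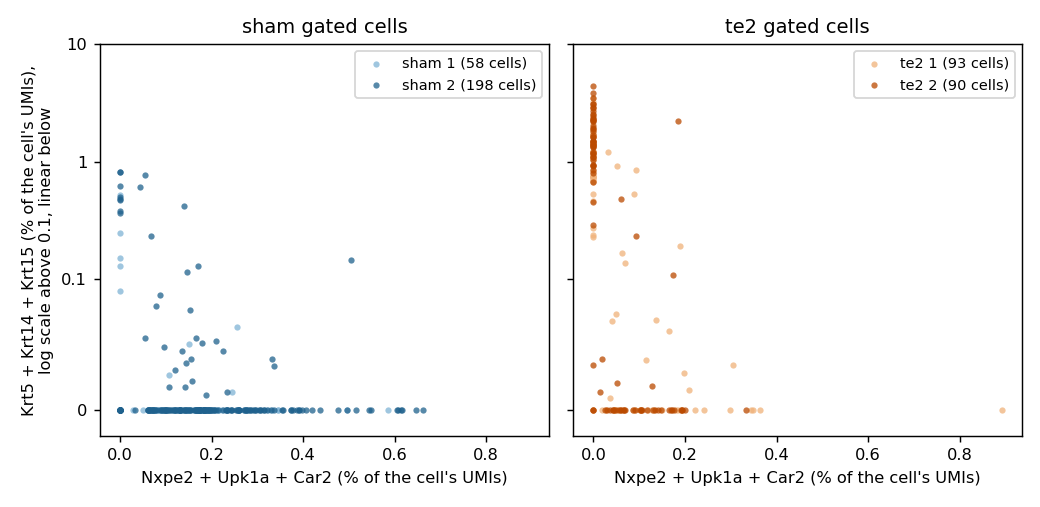
Each point is 1 gated cell, with Nxpe2, Upk1a and Car2 as percent of its UMIs on the horizontal axis and Krt5, Krt14 and Krt15 as percent of its UMIs on the vertical axis (symmetric log scale, linear near 0), in 1 panel for sham (256 cells) and 1 for te2 (183 cells). Cells high in basal keratins sit near 0 on the horizontal axis, and 98 of the 183 te2 cells lie in that keratin-positive class against 12 of the 256 sham cells.

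Macrophage, smooth muscle, fibroblast and endothelial markers were lower in the gated sham cells than in the other kept cells of each library. T cell markers were not. The 6 macrophage markers summed to 0 and 23.8 CPM against 252 and 161, and the 4 smooth muscle markers to 0 and 2.16 against 24.7 and 16.1. The 6 endothelial markers summed to 36.9 and 23.8, with counts of 1 gene only, against 75.9 and 55.1. Of the 6 seminal vesicle markers only 2 were in the tables, and these were at 0 in the gated cells of every library. The 5 T cell markers summed to 111 and 56.2 in sham gated cells and 53.9 and 52.9 in the other kept cells, and to 53.1 and 109 in te2 gated cells. Fibroblast markers summed to 170 and 77.8 in sham gated cells against 1743 and 615 in the other kept sham cells. In keratin-poor te2 cells the sum was 17.3 and 21.7, and in all te2 gated cells 964 and 1176, resting on 3 of 6 genes. Dcn, the decorin gene, made up most of that sum and stood at 1841 and 2727 CPM in the ungated basal cells of te2. Secretory luminal markers summed to 22338 and 21542 CPM in sham gated cells and to 6779 and 4998 in te2 gated cells. Macrophages of the same libraries held 26017 and 39057 CPM of them in sham and 4564 and 13038 in te2. The part of free RNA from broken secretory cells in these sums was not tested.

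Of the 6 urothelium markers, 4 were in the tables, and those with counts were mainly the 2 plaque proteins Upk1a and Upk1b. Upk1b stood at 162 and 132 CPM in sham gated cells against 15.6 and 16.3 in the other kept cells. Upk2 was at 0 in the gated cells of both sham libraries, and Krt20, a keratin of umbrella cells, was at 0 in the gated cells of all 4 libraries. The sham gated cells thus held Upk1a and Upk1b, with no counts of Upk2 or Krt20 at this depth. Of the 4 markers in the tables, 3 had counts in the gated cells of te2 2. A count of 0 at this depth does not show that a transcript was absent.

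Beyond the gate's own genes, Wfdc2, Krt4, Ppp1r1b, Cxcl17 and Clu stood highest in sham gated cells relative to the other kept cells. The 25 genes with the largest ratio over all other kept cells (the smaller of the 2 sham log2 ratios, with 10 CPM added to both sides) ran from Wfdc2 to Prr15l. They were chosen for their height in these libraries and are a description. Over all 8577 genes with at least 10 CPM, 5.26% were 2-fold or more higher in the gated cells of both sham animals and 2.01% lower, with a median log2 ratio of 0.35. That median lay above 0, and Sbp alone made up 169797 and 166745 CPM of the other kept cells against 7330 and 11615 in the gated cells.

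Keratins came first by role. Krt4, the keratin of stratified mucosal and proximal duct epithelium, stood at 362 and 335 CPM in sham gated cells against 5.84 and 8.93 in the other kept cells. Krt7, a keratin of simple ducts and urothelium, stood at 258 and 305 against 10.8 and 16.5. Both lay far above the other cells in each animal. Krt19 did not, at 133 and 320 against 131 and 197. The general luminal keratins Krt8 (1188 and 1115 against 572 and 749) and Krt18 (982 and 981 against 562 and 714) were higher by less.

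Mucin and mucosal defence genes went both ways, with 3 of 10 genes 2-fold or more higher in both sham animals and 2 lower (median log2 ratio 0.12). Wfdc2, a small protein with a protease inhibitor fold, stood at 428 CPM in sham 1 and 1564 in sham 2, against 6.95 and 27.9 in the other kept cells. Cxcl17, a mucosal chemokine, stood at 347 and 847 against 13.6 and 35.9. Clu, the secreted chaperone clusterin, stood at 1705 and 1296 against 111 and 84.9. The sham animals differed more than 2-fold in Wfdc2 and Cxcl17 and agreed more closely in Clu.

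Surface proteins of proximal and progenitor cells were 2-fold or more higher in both sham animals for 8 of 12 genes with enough counts (median log2 ratio 1.55). Prom1, the CD133 antigen, stood at 36.9 and 84.2 CPM against 1.39 and 3.92, and the epithelial adhesion molecule Epcam at 1602 and 1706 against 464 and 514. Psca, prostate stem cell antigen, differed between the sham animals, at 0 in sham 1 and 73.4 in sham 2. Ly6a, known as Sca-1, was 7.38 and 99.4 against 120 and 47.7, so it was lower than in the other cells in sham 1 and higher in sham 2.

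Ion and water transport genes were 2-fold or more higher for 7 of 17 genes and lower for 2. Scnn1a, the alpha subunit of the epithelial sodium channel, stood at 199 and 171 CPM against 6.12 and 8.27. Atp1b1, the beta subunit of the sodium pump, stood at 2857 and 2326 against 445 and 435. Slc34a2, a sodium phosphate cotransporter, stood at 148 and 145 against 0.834 and 1.96, and the water channel Aqp5 at 133 and 79.9 against 6.67 and 16.8. The calcium channel Trpv6 went the other way, at 7.38 and 19.4 against 233 and 267, and in the secretory luminal cells it stood at 278 and 313.

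Transcription factors of the fixed list were 2-fold or more higher for 14 of 36 and lower for 1. Sox9, a progenitor factor of many ducts, stood at 1056 and 715 CPM against 248 and 208, and Klf5, an epithelial Krüppel-like factor, at 185 and 279 against 35.3 and 27.4. Gata3, a factor of urothelium and other epithelia, stood at 170 and 197 against 50.3 and 57.3. Lmo4, a LIM-only adaptor of transcription factors, stood at 1823 and 1393 against 189 and 183. In contrast, Foxa1, a forkhead factor of the prostate epithelium, was 288 and 259 against 158 and 181, and the prostate factor Hoxb13 was 568 and 521 against 511 and 623.

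Genes of foreign compound, retinoid and aldehyde metabolism, the class to which the gate gene Cyp2f2 belongs, were 2-fold or more higher for 8 of 25 and lower for 2. Gsta4, a glutathione transferase for lipid aldehydes, stood at 118 and 231 CPM against 7.79 and 11.1. Adh1, an alcohol dehydrogenase, stood at 185 and 177 against 35.9 and 28.5. Dhrs3, a retinaldehyde reductase, stood at 576 and 434 against 87.0 and 96.9. Genes of the respiratory chain were higher for 14 of 42 and lower for none. Ribosomal protein genes passed the 2-fold limit in 0 of 36.

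Few receptor genes passed the 2-fold limit. Prlr, the prolactin receptor, was lower in sham gated cells, at 29.5 and 69.1 CPM against 256 and 229 in the other kept cells. None of 7 receptor genes with enough counts was 2-fold higher in both animals, and 1 was 2-fold lower. Androgen-regulated genes of the prostate passed the limit in neither direction in 19 genes. Over all genes 5.26% were higher and 2.01% lower, and counts this small in these 2 lists cannot be told from those shares. Antigen presentation genes of MHC class II were lower for 5 of 6, the invariant chain Cd74 at 14.8 and 71.3 against 956 and 328 in the other kept cells, which include the macrophages.

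**Figure D3:**
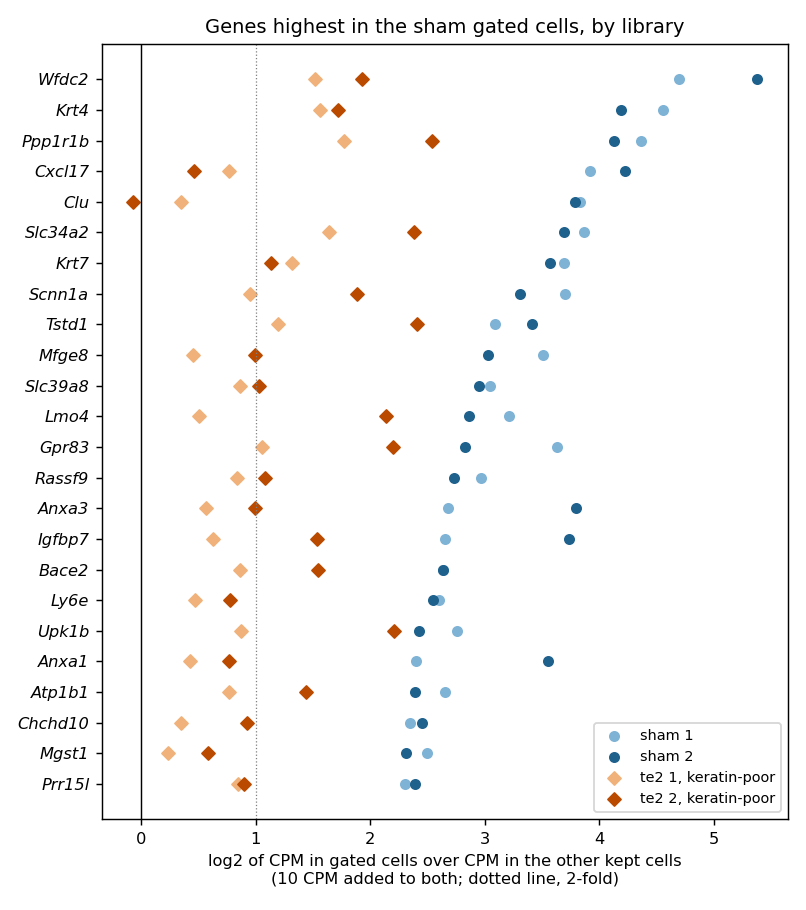
Log2 ratio of CPM in gated cells over all other kept cells of the same library (10 CPM added to both) for 24 of the 25 genes with the largest ratio in sham, as circles for the gated sham cells and diamonds for the keratin-poor te2 cells. The sham ratios of all plotted genes exceed 1 in both libraries, as the choice of genes requires, while the te2 ratios lie closer to 0 and those of 7 genes exceed 1 in both te2 libraries.

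The contrast of keratin-poor te2 cells with the other te2 cells was smaller than that of all gated sham cells with the other sham cells. The other kept cells differed in make-up. In te2 they included 302 and 133 Smr2 or Fxyd4 positive cells, a class with 0 cells in both sham libraries. Of the 25 genes, 7 were 2-fold or more higher in keratin-poor te2 cells than in the other kept te2 cells of both libraries, against a background of 1.04% of 8924 genes higher and 2.7% lower. Clu was 1125 and 1236 CPM in keratin-poor te2 cells and 882 and 1298 in the other kept te2 cells. Krt4 was 277 and 190 against 87.1 and 50.6, and Ppp1r1b, a phosphatase inhibitor also named DARPP-32, was 320 and 444 against 87.1 and 68.1. In sham Ppp1r1b had been 310 and 378 against 5.56 and 12.2, so its level in the keratin-poor cells was near that of sham and the level outside them was higher. Genes chosen for a high ratio in sham are set to show lower ratios elsewhere, so these values are only set side by side.

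For te2 against sham, gated cells were matched for depth, each te2 cell to the nearest sham cell within 0.25 on the log2 UMI scale, and summed per library. The fit was edgeR's quasi-likelihood test with TMM scaling and Benjamini-Hochberg adjustment over all genes tested, with a threshold of 0.05. A log2 change is te2 minus sham with its standard error (SE). With 2 animals a group, exact permutation of the libraries gives no p under 0.33, so the adjusted p-values rest on a spread pooled over genes. The matched set held 41 and 138 sham and 93 and 86 te2 cells. The gate's limit on Smr2, Smr2l and Fxyd4 alone had kept out 66 and 53 te2 cells and 0 and 1 sham cells. The te2 side of these fits therefore lacks cells with more of these transcripts, and the effect of this on the changes was not tested.

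The basal keratins Krt14 and Krt15, Col17a1 and Trp63 were among the genes higher in te2. Of 4933 genes, 735 passed (14.9%), 359 higher (7.28%) and 376 lower (7.62%) in te2. Without TMM scaling the split was 504 higher and 205 lower, and the median log2 change over all genes was 0.20 in place of 0.02. Krt15 stood at 50 and 249 CPM in sham and 4866 and 7528 in te2 (log2 change 5.09 ± 0.34, SE, edgeR adjusted p = 3.41e-13). For Krt14 the sham counts were 2 and the te2 counts 140, which gives a ratio of 66.8 (95% counting interval 18.2 to 557). Col17a1 had no sham counts and 72 te2 counts, at least 22.9-fold higher against 3 counts over the sham group. The te2 libraries were above both sham libraries for each of these, as the rule for naming them requires.

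The other genes named on the higher side had few or no sham counts or, for Apoe, a low sham level. Trp63 had 3 sham and 103 te2 counts, Cdh3 (P-cadherin of basal cells) 1 and 60, Serpinb5 (maspin) 1 and 64, Ly6d 2 and 100, and Rgs12 1 and 53. Apoe, apolipoprotein E, stood at 80 and 117 CPM in sham and 3352 and 3693 in te2 (5.05 ± 0.27, adjusted p = 1.28e-15 by edgeR), with 5731 and 6926 in ungated basal te2 cells. Sparc, a matrix protein, had 2 and 89 counts. Ltf, lactoferrin, stood at 225 and 185 CPM in te2 with no sham counts, and neither sham table listed the gene. Ungated basal te2 cells held 20.6 and 10.9 CPM of Ltf, below the level of the gated cells. Ly6c1 had 2 and 73 counts, and it rose in the keratin-poor cells too, as given below.

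Transcription factors, a protease and a phosphate transporter were among the genes lower in te2. Creb5, a CREB family factor, stood at 280 and 249 CPM in sham and 24.5 and 23.6 in te2 (-3.40 ± 0.36, edgeR adjusted p = 1.83e-08). Bhlha15, the secretory cell factor Mist1, stood at 170 and 157 against 24.5 and 15.7, and Ctrc, the protease chymotrypsin C, at 260 and 313 against 57.2 and 27.5. Edn1, endothelin 1, stood at 150 and 206 against 40.8 and 31.4, and Slc34a2 at 160 and 157 against 24.5 and 35.4. All 5 had sham and te2 values that did not overlap, as the rule for naming them requires. The other 7 named were Naip6, Svip, Rpl10, Ces1d, Rpl23a, Bex4 and Plscr2, with log2 changes from -2.31 to -1.93. Calls on Edn1, Slc34a2, Naip6, Svip, Rpl10 and Ces1d were lost when only keratin-poor cells were compared. Those on Naip6, Svip and Bex4 were lost without sham 2, and that on Bex4 was lost without te2 1.

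Fewer of the 25 sham identity genes passed in keratin-poor cells than in all gated cells. In all gated cells 13 of 25 fell and 1 rose (median log2 change -0.64), among them Krt4 at 430 and 402 CPM in sham and 159 and 173 in te2 (-1.31 ± 0.23, edgeR adjusted p = 0.000109) and Upk1b at 210 and 169 against 40.8 and 55.0 (-1.90 ± 0.34, adjusted p = 0.000101). In keratin-poor cells, a fit with fewer cells, 1 of 25 fell and 2 rose (median -0.29). Over all genes tested, 7.62% fell and 7.28% rose in all gated cells, and 3.71% fell and 2.45% rose in keratin-poor cells. The 25 genes were chosen for their height in the sham gated cells, which favours a fall in te2, so nothing is read from these counts. Several changes kept their sign without passing there: Upk1b went from -1.90 to -1.57, Slc34a2 from -2.37 to -1.48, Rassf9 from -1.32 to -1.04 and Igfbp7 from -0.64 to -0.56. Keratin-positive cells were 4.69% of the sham and 53.6% of the te2 gated cells, and their part in the calls in all gated cells was not tested. Counts of called genes were 386 without sham 2, 443 without te2 1 and 359 without te2 2.

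The keratin-poor cells were then matched again, at 15 and 53 sham and 34 and 34 te2 cells, leaving out Krt5, Krt14 and Krt15 as well as the gate genes. Here 151 of 2450 genes passed (6.16%), 60 higher (2.45%) and 91 lower (3.71%) in te2. These shares are the background for the list counts that follow, and counts of 1 or 2 genes are not read as a result about a list. The sum for sham 1 was the smallest, at 51822 UMIs, and the others held 115563 to 193973. Without TMM scaling 102 genes were higher and 54 lower, with a median log2 change over all genes of 0.22 in place of 0.02. Median mitochondrial shares of keratin-poor cells were 4.65% and 6.28% in sham and 6.80% and 9.08% in te2, and their part in the calls below was not tested beyond a limit of 10%, under which 184 genes passed.

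Psca, Ly6c1 and acute phase genes had the largest rises in keratin-poor te2 cells. Psca stood at 0 and 13.97 CPM in sham and at 712 and 724 in te2, with 2 and 153 counts and a ratio of 73.5 (95% counting interval 20.01 to 613). Only 1 sham table listed it. The ratio is that of the matched keratin-poor cells, and the keratin split removed sham cells with Psca. In sham 2 a Psca UMI was found in 14 of 198 gated cells and in 6 of 178 keratin-poor cells. Among all gated cells, without depth matching, it was found in 0% and 7.07% in sham and in 16.1% and 12.2% in te2. Ly6c1, a glycosylphosphatidylinositol-anchored Ly6 protein, had no sham counts and stood at 272 and 298 CPM in te2. It was at least 19.5-fold higher there, against 3 counts over the sham group. Ly6a stood at 0 and 119 CPM against 356 and 494 (2.24 ± 0.47, edgeR adjusted p = 0.0111). The sham animals differed for Ly6a, and both te2 values lay above them, as the rule for naming it requires. Of 11 proximal and progenitor surface genes tested, 2 rose and none fell, against 2.45% and 3.71% of all genes. Epcam, Sox9 and Cd24a were among those that did not pass.

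Among acute phase and innate defence genes, 4 of 5 tested rose (median log2 change 4.33, against 0.02 over all genes). Lrg1, a leucine-rich glycoprotein of the acute phase, had 1 sham and 85 te2 counts, at 481 and 332 CPM in te2. Lbp, which binds bacterial lipopolysaccharide, had 1 and 45 counts, and Lcn2, an iron-sequestering lipocalin, stood at 26.1 and 6.99 CPM in sham and 178 and 307 in te2. The 2 te2 libraries lay above both sham libraries for all of these, as the rule for naming them requires. The count was 2 of 4 without te2 2 and 1 of 3 with DESeq2, and the call on Lcn2 was lost without te2 2. Ungated basal cells held Lcn2 at 575 and 316 CPM in sham and 341 and 401 in te2.

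Mucosal defence genes, a list that shares Lcn2, Lbp and Wfdc2 with the last, rose for 6 of 8 (median 1.48). Wfdc3, a relative of Wfdc2, stood at 52.2 and 252 CPM in sham and 5222 and 1975 in te2 (4.20 ± 0.49, edgeR adjusted p = 0.000328). Wfdc2 itself stood at 313 and 1237 against 2585 and 2341 (1.49 ± 0.36, adjusted p = 0.0244). Pigr, the receptor that carries immunoglobulin A across epithelium, stood at 1825 and 2201 against 5023 and 6249 (1.47 ± 0.26, adjusted p = 0.00409). Agr2, a disulfide isomerase of mucous cells, stood at 574 and 475 against 1810 and 920 (1.41 ± 0.32, adjusted p = 0.0157). Groups did not overlap for any of the 4, as the rule for naming requires for Wfdc3. Clu and Saa3 were the 2 that did not pass. The call on Wfdc2 was lost without sham 1 and that on Agr2 without te2 1.

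**Figure D4:**
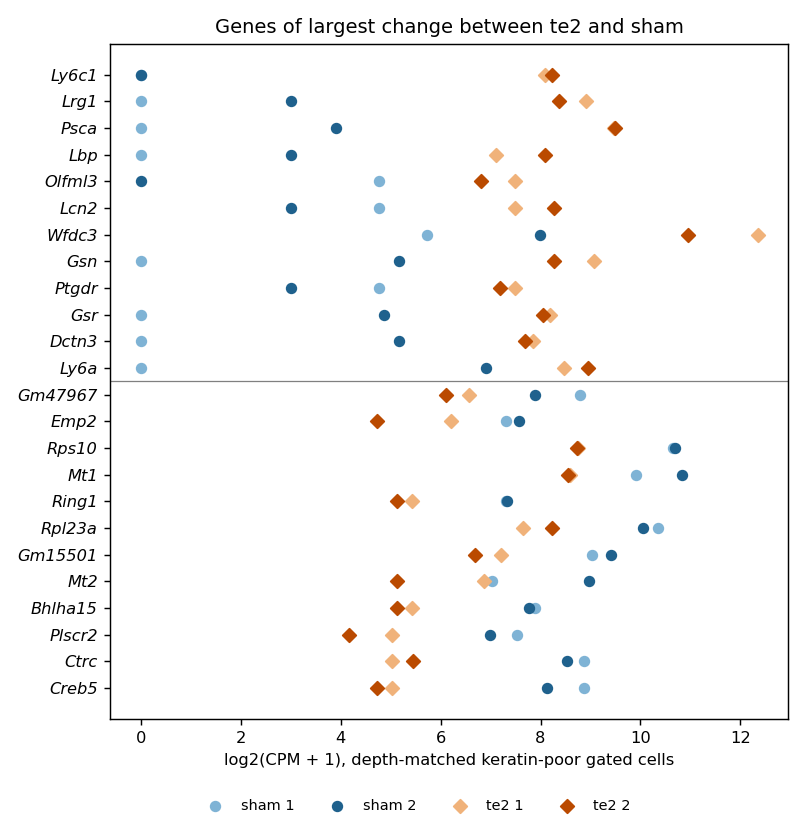
Log2 of CPM plus 1 in the 4 libraries (2 sham, 2 te2, points) for the 24 genes named in keratin-poor cells, 12 higher and 12 lower in te2. The sham and te2 points do not overlap for any of the 24, as the rule for naming them requires, and the gap is widest for genes with 0 to 2 sham counts such as Ly6c1, Lrg1 and Psca.

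Keratins, transport and junction genes moved singly. Krt7 stood at 183 and 300 CPM in sham and 952 and 698 in te2 (1.63 ± 0.30, edgeR adjusted p = 0.00614), while Krt8 stood at 1669 and 1558 against 942 and 724 (-0.95 ± 0.24, adjusted p = 0.0297). Krt4 did not pass, at 469 and 370 against 335 and 289 (-0.37 ± 0.30, adjusted p = 0.541). Of 9 transport genes 2 rose, against 2.45% of all genes. These were the water channel Aqp5 (2.01 ± 0.35) and the potassium channel Kcnk1 (1.62 ± 0.34). Cldn10, a claudin that forms ion pores, rose (1.20 ± 0.27) and Cldn7 fell (-1.01 ± 0.24), out of 13 claudin and junction genes. Upk1b, at 235 and 147 CPM in sham and 20.9 and 85.1 in te2, did not pass (-1.57 ± 0.57, adjusted p = 0.121), nor did the other 2 urothelial genes tested. Calls were lost on Krt8 (without sham 1, sham 2 or te2 2), Aqp5 and Cldn10 (without sham 2) and Cldn7 (without sham 2 or te2 2).

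Enzymes that handle oxidants were divided. Gsr, glutathione reductase, stood at 0 and 27.9 CPM in sham and 293 and 264 in te2 (3.59 ± 0.55, edgeR adjusted p = 0.00144). Gsto1, an omega class glutathione transferase, rose (2.21 ± 0.33) and Gstm1 fell (-1.56 ± 0.32), the latter only with sham 2 in the fit. Mt1, a metallothionein that binds zinc and copper, stood at 965 and 1838 against 387 and 375 (-1.95 ± 0.30, adjusted p = 0.00144). Mt2 fell too (-2.44 ± 0.53), but its call was lost without sham 2. Secretory luminal cells showed lower Mt1 as well, at 4614 and 5498 CPM in sham and 1280 and 1625 in te2.

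On the lower side, Creb5 stood at 469 and 279 CPM in sham and 31.4 and 25.5 in te2 (-3.51 ± 0.49, edgeR adjusted p = 0.000882), and Ctrc at 469 and 370 against 31.4 and 42.6 (-3.37 ± 0.42, adjusted p = 0.000353). Bhlha15 stood at 235 and 217 against 41.9 and 34.1 (-2.52 ± 0.49, adjusted p = 0.00754), a call lost without sham 2. Creb5 and Bhlha15 were the 2 of 20 epithelial transcription factors that fell, against 3.71% of all genes, and none rose. Lmo4, the 1 identity gene that fell, stood at 2399 and 2047 against 764 and 1371 (-1.04 ± 0.28, adjusted p = 0.0366), a call lost without sham 1 or te2 1. Ribosomal protein genes fell for 21 of 36 and rose for none (median -1.07). The count was 15 without TMM scaling and 12 without sham 2, and several of these genes have near-identical copies among which reads can be split. Rps10, outside that list, stood at 1617 and 1656 against 429 and 426.

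Of the remaining genes named by rule, Gsn, the actin-severing gelsolin, stood at 0 and 34.9 CPM in sham and 534 and 307 in te2 (3.86 ± 0.55, edgeR adjusted p = 0.000882). Olfml3, Ptgdr (a prostaglandin D2 receptor) and Dctn3 (a dynactin subunit) were higher, and Plscr2, Ring1, Emp2, Gm15501, Gm47967 and Rpl23a lower. Without 1 library, calls were lost on Olfml3 (sham 2 or te2 2), Ptgdr (sham 2, te2 1 or te2 2), Plscr2 and Ring1 (sham 1, te2 1 or te2 2 for each) and Emp2 (sham 2 or te2 2). Among androgen-regulated genes, Fkbp5, a chaperone induced by androgens and glucocorticoids, stood at 417 and 238 against 1162 and 1141 (1.97 ± 0.29, adjusted p = 0.00111). Azgp1 (-1.24 ± 0.24) and the polyamine enzyme Odc1 (-1.55 ± 0.35) fell. In that list 1 of 12 rose and 2 fell, against 2.45% and 3.71% of all genes. The call on Odc1 was lost without te2 2.

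Receptors did not pass in either comparison. In all gated cells Prlr stood at 40 and 82.9 CPM in sham and 163 and 86.4 in te2 (0.79 ± 0.37, edgeR adjusted p = 0.155), which passed without te2 2 (1.21), and Nr3c1, the glucocorticoid receptor, had a log2 change of 0.67 ± 0.52 (adjusted p = 0.451). In keratin-poor cells Prlr stood at 52.2 and 140 CPM against 377 and 187 (1.21 ± 0.44, edgeR adjusted p = 0.124). Its groups did not overlap, and it passed without depth matching (1.79), with summed counts thinned to equal totals (2.86), without sham 2 (2.40) and without te2 2 (1.70). Esr1, Esr2 and Pgr had too few counts to be tested in either comparison, and Nr3c1 in the keratin-poor cells.

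The te2 change of the gated cells was set against that of the secretory luminal cells of the same animals, in 1 fit with the library as a block, on all gated or all keratin-poor cells without depth matching. For all gated cells the change differed in 525 of 11307 genes (4.64%), above the change in secretory cells in 1.57% and below it in 3.07%. For keratin-poor cells it differed in 224 of 10840 (2.07%), 41 above (0.378%) and 183 below (1.69%) the change in secretory cells. That count was 87 without sham 1, 50 without sham 2 and 124 without te2 2. Most genes named in the keratin-poor cells did not pass this test, so a response of their own was not shown: the difference was -0.05 ± 0.90 for Ly6c1, -0.49 ± 0.62 for Lrg1, 0.40 ± 0.25 for Wfdc3 and -0.43 ± 0.57 for Creb5. Wfdc3 stood at 223 and 322 CPM in secretory luminal cells of sham and 4632 and 4303 in those of te2.

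Some genes did differ, although single libraries decided most of these calls. Prlr was 30.9 and 75.8 CPM in keratin-poor cells of sham and 312 and 190 in te2, and in secretory luminal cells it was 297 and 241 against 285 and 271. The difference in change was 1.76 ± 0.33 (edgeR adjusted p = 1.88e-05), and without sham 1 it was 1.33 and did not pass (adjusted p = 0.0955). Gsn differed by 1.48 ± 0.38 and Fkbp5 by 1.03 ± 0.24, both larger in the keratin-poor cells, and Pigr by 0.73 ± 0.20. Ly6a differed by -1.96 ± 0.43 and Rps10 by -0.76 ± 0.23. Secretory cells went from 10.8 and 4.96 CPM of Ly6a to 149 and 185, against 7.72 and 70.9 and then 294 and 363 in the keratin-poor cells. Without sham 2 the sign for Ly6a turned (1.55, adjusted p = 0.905 by edgeR). Calls were lost on Gsn without sham 1 or te2 1, on Fkbp5 without sham 1, sham 2 or te2 2, on Pigr without sham 1 or te2 2, and on Rps10 without any 1 of the 4 libraries.

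Several identity genes of the sham gated cells changed by more in the secretory luminal cells than in the keratin-poor cells. Clu was 120 and 69.0 CPM in secretory cells of sham and 796 and 1035 in those of te2, against 1614 and 1305 and then 1125 and 1236 in keratin-poor cells, a difference of -3.68 ± 0.22 (edgeR adjusted p = 1.4e-60). Krt7 was 5.05 and 3.92 against 172 and 163 in secretory cells, and 255 and 286 against 787 and 558 in keratin-poor cells (-4.02 ± 0.33). Cxcl17 differed by -3.45 ± 0.27 and Wfdc2 by -2.12 ± 0.28. These 4 calls held without each library in turn. The genes were chosen as high in gated and low in other cells in sham, so the sign of the difference is the one that choice favours, and nothing is read from it.

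**Figure D5:**
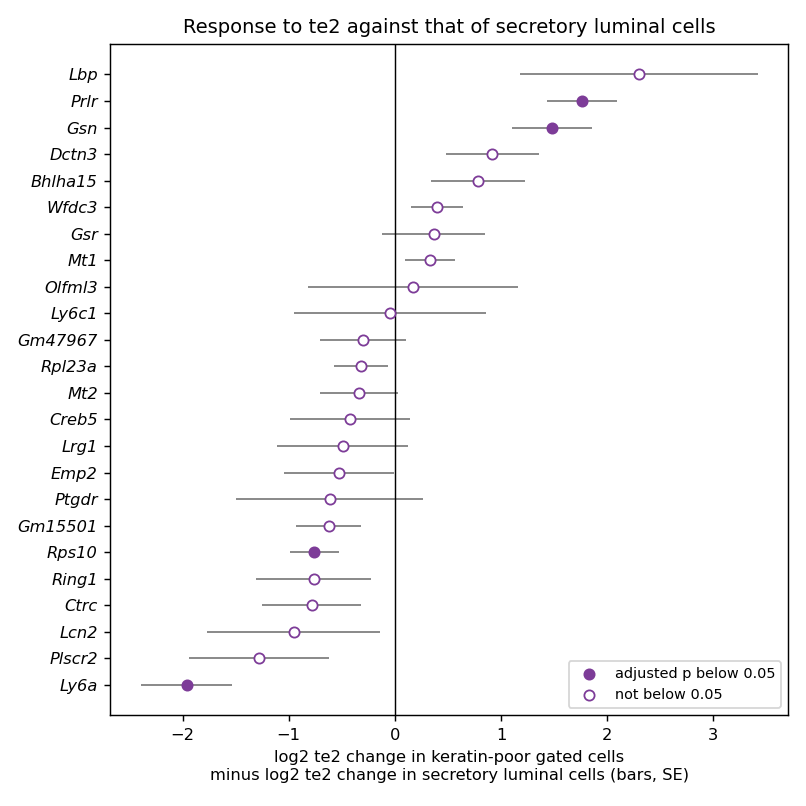
Log2 te2 change in keratin-poor cells minus that in secretory luminal cells, with SE bars, for Prlr and the genes of largest te2 change in keratin-poor cells, with filled points for an edgeR adjusted p under 0.05. Prlr and Gsn lie above 0 and Rps10 and Ly6a below 0 as filled points, and the other genes plotted are open, with Psca left out because secretory cells of sham held no counts of it.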

How the data were processed

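Single-cell transcripts were counted in 4 libraries of mouse ventral prostate. Each deposited table gives whole-number UMI counts, with no normalization. The submitters' processing notes name build GRCm39 and the tools Seurat 5.0.1, R 4.3.2, bustools 0.39.4 and kallisto 0.46.1, without their roles. Tables held 2250, 3061, 3078 and 2856 cells with 3999690, 5513275, 12259610 and 13134017 UMIs, and a gene absent from a table was entered as 0.

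The gated cells and all gene lists were chosen with earlier results of these data known. Sums of counts over the cells of a class in each library were tested with edgeR 4.0.16 (quasi-likelihood, TMM, filterByExpr, FDR 0.05), with DESeq2 1.42.0 as an alternative. SE is the absolute log2 change over the square root of the F statistic. Genes named for te2 were, past the threshold, the 12 in each direction with the largest change, provided that the groups did not overlap and mean log2 CPM reached 6. Identity genes were the 25 highest over other kept cells in both sham libraries, with at least 20 counts in each. Receptors were always given, and a few genes that these rules name are not reported here. The keratin-poor analysis was added after seeing the data. The levels in the te2 tests are TMM-scaled CPM, and those elsewhere are scaled by totals alone. Scrublet in scanpy 1.11.5 called 97 kept cells (1.20%) as doublets, 1 of them gated, and they were kept.

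On simulated data made from these libraries, the test in all gated cells recovered 94.8% of 4-fold and 30.9% of 2-fold changes over 4873 genes, and in keratin-poor cells 92% and 39.4% over 2628 genes. Of its calls there, 7.63% and 7.86% were false, above the 5% set. Recovery and false calls both depend on the spread between libraries that was simulated. Whether the real libraries spread alike was not tested, so these rates are not read as those of the tests on the real counts.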

Additional observations from a re-analysis of the deposited data

Results flagged for a closer look

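For 16 named genes the te2 change in the gated cells differed from the change in the secretory luminal cells of the same animals, by edgeR's test of the difference itself (values are log2, gated minus secretory). In all gated cells, 9 genes had a larger change upward: Krt14 by 5.44, Serpinb5 by 3.29, Cdh3 by 4.36, Ly6d by 7.98, Rgs12 by 3.59, Krt15 by 2.74, Sparc by 5.38, Apoe by 5.45 and Trp63 by 4.25. These genes stood between 59.7 and 3720 CPM in the ungated basal cells of sham 2, and 53.6% of the te2 gated cells were keratin-positive against 4.69% in sham. Krt14 and Krt15 are among the genes that define basal cells here, so their height there is by construction. Values for sham 1, which had 22 ungated basal cells, are not given. Edn1 differed by -1.47 and Bex4 by -2.94.

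In keratin-poor cells, Gsn differed by 1.48, Prlr by 1.76, Ly6a by -1.96 and Rps10 by -0.76, the last with an adjusted p of 0.0499 by edgeR. None of these 4 kept its call without each library in turn: Prlr was 1.33 without sham 1, Gsn 1.03 without sham 1 and 1.04 without te2 1, Ly6a 1.55 without sham 2, and Rps10 ranged from -0.88 to -0.57. Psca differed by -7.77, but secretory cells of sham held 0 counts of it, so that value depends on the prior count of the fit and is no measure of size.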

How the results depend on the processing

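The count of genes called in all gated cells (735) was 257 with summed counts thinned to equal totals, 167 with DESeq2, 191 with no filter on low counts, 234 with at least 2 of the 4 positive genes and 151 in keratin-poor cells, and it ranged from 359 to 609 when each replicate was left out. In keratin-poor cells the count (151) was 268 without depth matching and 58 with DESeq2, and it ranged from 120 to 165 without each replicate. The difference from secretory cells (525) was 224 in keratin-poor cells and ranged from 72 to 425 without each replicate, and in keratin-poor cells it ranged from 50 to 241.

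The te2 share of kept cells (4.13%) was 3.32% after thinning to 500 UMIs, 3.68% with at least 3 UMIs and 4.54% with at least 1 UMI of the positive genes, 6.81% with no limit on Smr2, Smr2l and Fxyd4, 3.901% with at most 10% mitochondrial counts, 1.61% in keratin-poor cells (2.12% after thinning) and 1.62% with at least 2 positive genes.

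The direction changed for 1 receptor that had not passed: in all gated cells Nr3c1 ranged from -0.37 to 1.27 without each replicate. Where a cause is not plain from the construction of the alternative, the cause was not tested. Where 1 library was left in a group, it was assumed to vary like the other group.

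The labels' replicate numbers were not used to pair the samples. Deviations of same-numbered libraries correlated at -0.024 in all gated and -0.021 in keratin-poor cells (2 pairs). Such values cannot exclude pairing at 2 libraries a group. With the replicate block, 711 genes passed in all gated cells and 202 in keratin-poor cells.

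Depth limited the keratin-poor comparison, in which sham 1 gave 15 cells and 2450 genes were tested.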
